A study of Mus musculus with 11 samples.

Results

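Txnip and the Arrdc genes encode the alpha-arrestins, and Mlxip and Mlx encode a pair of transcription factor subunits known to control some of them. Of the 7 genes Txnip, Arrdc1, Arrdc2, Arrdc3, Arrdc4, Mlx and Mlxip, 6 were represented on a mouse Illumina bead array, among 19057 genes named there and by 14 of its 45281 probes. The platform annotation used here lists no probe under the symbol Arrdc3, which was therefore not analysed here. The genes were chosen by symbol, and with the knowledge that Arrdc4 and Txnip were higher in Il23r-/- cells than in WT cells. Their genotype differences are therefore given as a description, without a test.

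The arrays measured messenger RNA of T cells that were positive for CD4 and TCRβ, sorted from the colon lamina propria, the connective tissue beneath the gut epithelium. The 5 Il23r-/- samples were T cells that cannot sense IL-23, because the gene for its receptor chain was deleted (IL-23 is a cytokine that drives gut inflammation). The 6 WT samples were T cells with that receptor intact. All samples carry the strain label C57BL/6. In both groups the cells had been injected as naive CD4 T cells, WT and Il23r-/- together, into Rag1-/- mice, which lack T and B cells of their own, and were recovered by their congenic markers once colitis had developed. The sources used here give neither the age of the mice nor the number of recipients or any pooling, so p-values reflect how far these particular samples scatter, and that scatter may be technical.

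Alpha-arrestins are adaptor proteins that carry membrane proteins towards ubiquitin ligases of the NEDD4 family and into the cell. Txnip (thioredoxin interacting protein) binds thioredoxin and lowers glucose uptake by removing glucose transporters from the cell surface. Mlxip, also called MondoA, enters the nucleus with its partner Mlx when glucose 6-phosphate is plentiful and binds carbohydrate response elements, paired E-box sequences, in the promoters of Txnip and Arrdc4. T cells are known to lower Txnip when they are activated to grow.

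Since Txnip and Arrdc4 are both known targets of that factor, the 250 bases before the annotated start of each gene are shown, from RefSeq on GRCm38.p6. Capitals mark the paired element in Txnip, made of 2 CACGNG sites 5 bases apart, and the E-box CACGTG in Arrdc4.
Txnip (chr3:96557707-96557956, plus strand): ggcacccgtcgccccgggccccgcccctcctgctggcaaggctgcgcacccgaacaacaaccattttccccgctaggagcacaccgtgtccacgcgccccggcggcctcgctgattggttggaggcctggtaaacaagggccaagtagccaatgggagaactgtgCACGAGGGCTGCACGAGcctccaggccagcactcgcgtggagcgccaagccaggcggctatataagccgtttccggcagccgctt
Arrdc4 (chr7:68749239-68749488, minus strand): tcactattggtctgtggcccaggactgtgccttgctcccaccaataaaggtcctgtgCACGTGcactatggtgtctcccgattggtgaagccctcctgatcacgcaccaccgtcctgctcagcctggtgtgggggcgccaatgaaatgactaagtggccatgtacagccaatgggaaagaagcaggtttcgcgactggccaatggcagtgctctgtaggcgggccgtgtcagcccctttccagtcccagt

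Both strands of these windows were searched for CACGTG, for the looser site CACGNG (which also takes in CACGTG), for the paired element, for the CCAAT box and for GTAAACA, a forkhead sequence. The Txnip window held the paired element, starting 85 bases before the start site, and 2 further CACGNG sites outside it. Among the 32851 promoter windows of the same length, 0.0457% held the paired element and 23.5% held at least 1 CACGNG site. The Txnip window also held GTAAACA at 121 bases before the start, as 3.17% of windows did. The Arrdc4 window held CACGTG at 193 bases before the start, as 6.02% of windows did, and no paired element in these letters. It held 6 CCAAT boxes and the Txnip window 2, where 33.8% of windows held at least 1. The Mlx window held CACGTG at 40 bases before its start, and the windows of Arrdc1, Arrdc2, Arrdc3 and Mlxip held no CACGTG. The looser CACGNG occurred at 158 and 118 bases before the start of Arrdc1 and at 77 before that of Arrdc2, and not in the windows of Arrdc3 and Mlxip. A match describes letters in a window and does not show that a factor binds there.

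Each array detected 17309 to 18440 probes above background. Median raw intensities were 117.5 to 176.7 on the Il23r-/- arrays and 107.6 to 165.3 on the WT arrays. The Il23r probe was above background on 0 of the 11 arrays and gives no check of the genotype labels. Of 18003 probes kept for testing, limma called 320 (Benjamini-Hochberg adjusted p under 0.05), with 210 of them higher and 110 lower in Il23r-/- cells (65.6% higher). With equal array medians the split was 199 higher and 58 lower (77.4% higher). With 1 array left out the count of 320 moved most on dropping Il23r-/- sample 2 (187), 3 (178) or 4 (181) and WT sample 2 (513), 3 (162) or 5 (159). Of 10 T cell markers 8 had a probe, and all 8 were measured. Their brightest genes were Cd3g at 14.83 ± 0.12 in Il23r-/- and 14.78 ± 0.14 in WT cells and Thy1 at 14.83 ± 0.02 in Il23r-/- and 14.94 ± 0.10 in WT cells (normalized log2 intensity, SD, n = 5 and n = 6). Cd4, a marker of the sort, was at 9.37 ± 0.26 in Il23r-/- and 9.59 ± 0.11 in WT cells, a log2 difference of -0.22 ± 0.11 (SE, limma adjusted p = 0.331). None of the 8 passed, and at an unadjusted p under 0.05 there were 2 lower, Cd247 (-0.44) and Cd2 (-0.18), and 0 higher, with a median of -0.05. The summed level of the list was 106408 to 111636 in Il23r-/- samples and 99873 to 117314 in WT samples (linear normalized intensity), and its part in the differences below was not tested.

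Of the 14 probes, 8 passed the filter on dim probes, and each of these 8 was above background on all 11 arrays. They comprised both Txnip probes, the single probes of Arrdc4 and Arrdc1, 1 probe each of Arrdc2 and Mlxip, and 2 probes of Mlx. Levels below are normalized log2 intensities, and since bead probes differ in how brightly they hybridise, levels of different probes are not set against each other. Of the 8 probes, 3 were called in the fit across all probes, where 1.78% of all tested probes were called, and all 3 were higher in Il23r-/- cells, as 1.17% of tested probes were. On 2 of the 8 the samples of the genotypes did not overlap, which held for 3.21% of tested probes (1.92% with the Il23r-/- samples higher). The 3 were the Txnip probes and the Arrdc4 probe, whose difference had led to the choice of the genes, so nothing is read from these counts. In sorted bulk samples a smaller share of cells that express a gene and less of its RNA per cell cannot be told apart.

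Arrdc4, an adaptor of NEDD4 family ligases that is also known to limit glucose uptake, was the member with the widest gap between the genotypes. Its level was 10.27, 10.52, 10.44, 10.43 and 10.56 in Il23r-/- samples 1 to 5, against a lowest value of 8.78, a median of 9.22 and a highest value of 9.55 in WT samples. Every Il23r-/- sample lay above every WT sample, with a gap of 0.72 between the nearest pair. The mean was 10.44 ± 0.11 (SD, n = 5) in Il23r-/- cells and 9.18 ± 0.30 (SD, n = 6) in WT cells, a log2 difference, Il23r-/- minus WT, of 1.26 ± 0.13 (SE), or 2.40-fold. The raw intensities were also apart without any normalization, at 1248 to 1867 in Il23r-/- samples and 410.9 to 915.7 in WT samples. The WT samples spread more widely than the Il23r-/- samples on the log2 scale, with WT samples 5 and 3 lowest at 8.78 and 8.91.

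Txnip was higher in Il23r-/- cells on both of its probes. Probe 1 read 11.26, 11.44, 11.60, 11.00 and 11.49 in Il23r-/- samples 1 to 5, against a lowest value of 10.52, a median of 10.73 and a highest value of 11.03 in WT samples. The groups overlapped by 1 sample on each side, since Il23r-/- sample 4 (11.00) lay just below WT sample 1 (11.03). The means were 11.36 ± 0.23 (SD, n = 5) in Il23r-/- cells and 10.75 ± 0.23 (SD, n = 6) in WT cells, a log2 difference of 0.61 ± 0.13 (SE), or 1.52-fold. Probe 2 read 10.27, 10.41, 10.48, 10.21 and 10.49 in the Il23r-/- samples, against a lowest value of 9.60, a median of 9.71 and a highest value of 9.82 in WT samples. Here the groups did not overlap, and the nearest samples were 0.39 apart. The means were 10.37 ± 0.12 (SD, n = 5) in Il23r-/- cells and 9.71 ± 0.08 (SD, n = 6) in WT cells, a log2 difference of 0.67 ± 0.08 (SE), or 1.59-fold.

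The 2 Txnip probes, which the platform assigns to different RefSeq transcripts of the gene, gave log2 differences of 0.61 and 0.67 on the same arrays. The level of probe 1 minus that of probe 2 ran from 0.79 to 1.12 over the Il23r-/- samples (median 1.00) and from 0.89 to 1.26 over the WT samples (median 1.00), so that the balance of the probes overlapped between the genotypes. Within each genotype probe 2 was the tighter of the pair. On raw intensities probe 2 was again apart, at 1284 to 1799 in Il23r-/- samples and 656.3 to 1180 in WT samples, and probe 1 overlapped, at 2186 to 3434 and 1144 to 2598 in the same order.

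**Figure D1:**
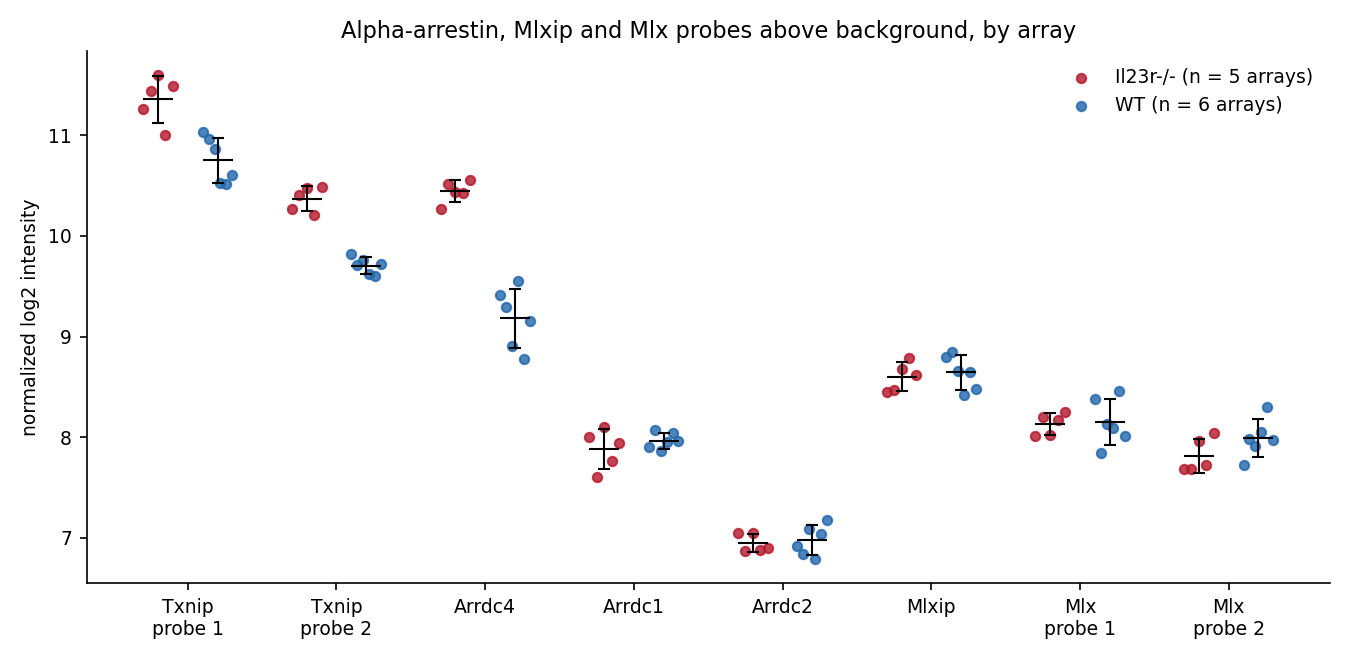
Normalized log2 intensity of the 8 probes above background, with a point for each array, Il23r-/- (5 arrays) left of WT (6 arrays), and bars for the mean and SD. Txnip probe 2 and Arrdc4 show no overlap between the genotypes, and Txnip probe 1 overlaps by 1 sample on each side. On each of the other probes the genotypes overlap, though single samples of Arrdc1 and Mlx lie outside the range of the other genotype. Heights of different probes are not comparable.

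Of the remaining alpha-arrestins, Arrdc1 and Arrdc2 gave differences close to 0. Arrdc3 had no probe listed, and Arrdc5 had a probe but was too dim to measure. Arrdc1, which in human cells directs the budding of small vesicles from the plasma membrane, read 8.00, 7.60, 8.10, 7.76 and 7.94 in Il23r-/- samples 1 to 5, against a lowest value of 7.86, a median of 7.96 and a highest value of 8.07 in WT samples. Il23r-/- samples 2 and 4 lay below the WT range, sample 3 above it and samples 1 and 5 within it, and the log2 difference was -0.08 ± 0.10 (SE). Arrdc2, another member of the family, read 7.05, 6.87, 7.05, 6.88 and 6.90 in the Il23r-/- samples on its brighter probe, against a lowest value of 6.79, a median of 6.98 and a highest value of 7.18 in WT samples. All 5 Il23r-/- values fell inside the WT range, and the log2 difference was -0.03 ± 0.09 (SE). Its second probe was at background on all arrays.

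The probes measured for the factor known to control Txnip and Arrdc4 showed no such gap. Mlxip, the glucose-sensing subunit, read 8.45, 8.47, 8.68, 8.79 and 8.62 in Il23r-/- samples 1 to 5, against a lowest value of 8.42, a median of 8.66 and a highest value of 8.85 in WT samples, and its log2 difference was -0.04 ± 0.10 (SE). All 5 Il23r-/- values lay within the WT range. Mlx, its DNA-binding partner, read 8.01, 8.20, 8.02, 8.17 and 8.25 in the Il23r-/- samples on its brighter probe, against a lowest value of 7.84, a median of 8.11 and a highest value of 8.46 in WT samples, with a log2 difference of -0.02 ± 0.11 (SE). Its second probe was at 7.81 ± 0.17 (SD, n = 5) in Il23r-/- cells and 7.99 ± 0.19 (SD, n = 6) in WT cells, a log2 difference of -0.17 ± 0.11 (SE), and the groups overlapped there too. The other 6 probes (4 of Mlxip, 1 of Arrdc2 and 1 of Mlx) were not above background on any Il23r-/- array and on at most 1 WT array, so no fold is given for them. The platform annotation assigns these 4 Mlxip probes to RefSeq transcripts but gives no accession for the Mlxip probe read above. The sequence of that probe was not checked against the gene. These transcript levels say nothing of where the Mlxip protein was in the cell or of its activity.

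**Figure D2:**
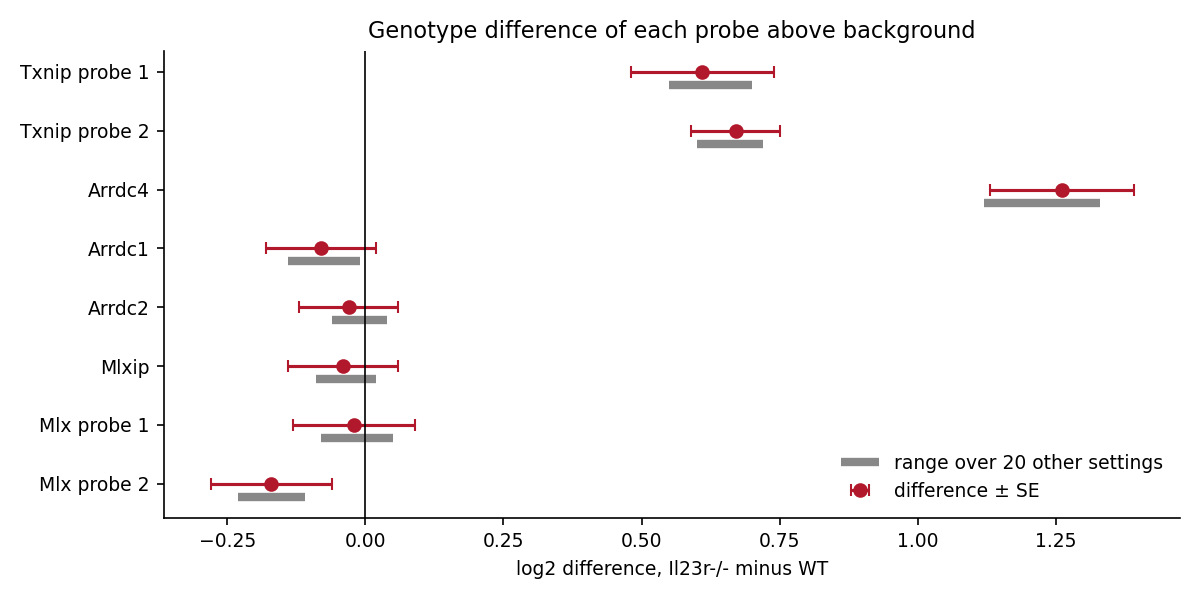
Log2 difference, Il23r-/- minus WT, of each probe above background, with its SE, and below it in grey the range over 20 other settings of the fit. Txnip ran from 0.55 to 0.70 on probe 1 and from 0.60 to 0.72 on probe 2, and Arrdc4 from 1.12 to 1.33, while the remaining probes stayed between -0.23 and 0.05.

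The differences of Txnip and Arrdc4 held their size under the other settings. When 1 array at a time was left out, that of Arrdc4 ran from 1.18 to 1.33, that of Txnip probe 1 from 0.55 to 0.70 and that of Txnip probe 2 from 0.64 to 0.71. On the log2 values that the authors deposited, Arrdc4 stood at 2.43 ± 0.10 (SD, n = 5) in Il23r-/- cells and 1.31 ± 0.26 (SD, n = 6) in WT cells, relative to the 75th percentile of each array. The difference on that scale was 1.12 for Arrdc4, 0.57 for Txnip probe 1 and 0.60 for Txnip probe 2, and the groups again overlapped on Txnip probe 1 alone. With array brightness as a covariate the differences were 1.23, 0.58 and 0.67.

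Whether Txnip varied together with the other members among samples of 1 genotype was examined in the 6 WT samples. This leaves out the difference the genes were chosen for. Each gene stands by its brightest kept probe, which is probe 1 for Txnip. With Arrdc4, the other known target, Pearson's r was 0.23 (exact permutation p = 0.636, Benjamini-Hochberg adjusted over 5 relations 0.703) and Spearman's rho 0.37 (exact permutation p = 0.497, adjusted 0.823). Without the 2 samples farthest from the Txnip median, r was -0.32. The highest value was that with Mlxip, at r = 0.83 (exact permutation p = 0.0556, adjusted 0.278) and rho = 0.77 (exact permutation p = 0.103, adjusted 0.515). Without those 2 samples r with Mlxip was 0.47, and over all 11 arrays, with each genotype mean removed, it was 0.35. With Arrdc1, Arrdc2 and Mlx r was -0.24, -0.21 and -0.18 and rho was -0.26, -0.09 and -0.26, with exact permutation p of 0.597 to 0.703 for r (adjusted 0.703 for each) and 0.658 to 0.919 for rho (adjusted 0.823 to 0.919). Without the same 2 samples r was -0.88, 0.42 and -0.34 for these genes. None of the 5 relations passed at an adjusted p under 0.05 in these 6 samples, and values of 1 array share its RNA, scan and scaling. With equal medians in place of quantile normalization r with Arrdc1 was 0.86, so the sign of that value depended on the scaling. In the same setting r was 0.66 with Arrdc4 and 0.93 with Mlxip. None of these passed (exact permutation, adjusted p of 0.0903 for Arrdc1, 0.259 for Arrdc4 and 0.0903 for Mlxip). The labels name no batch within which to repeat these values.

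**Figure D3:**
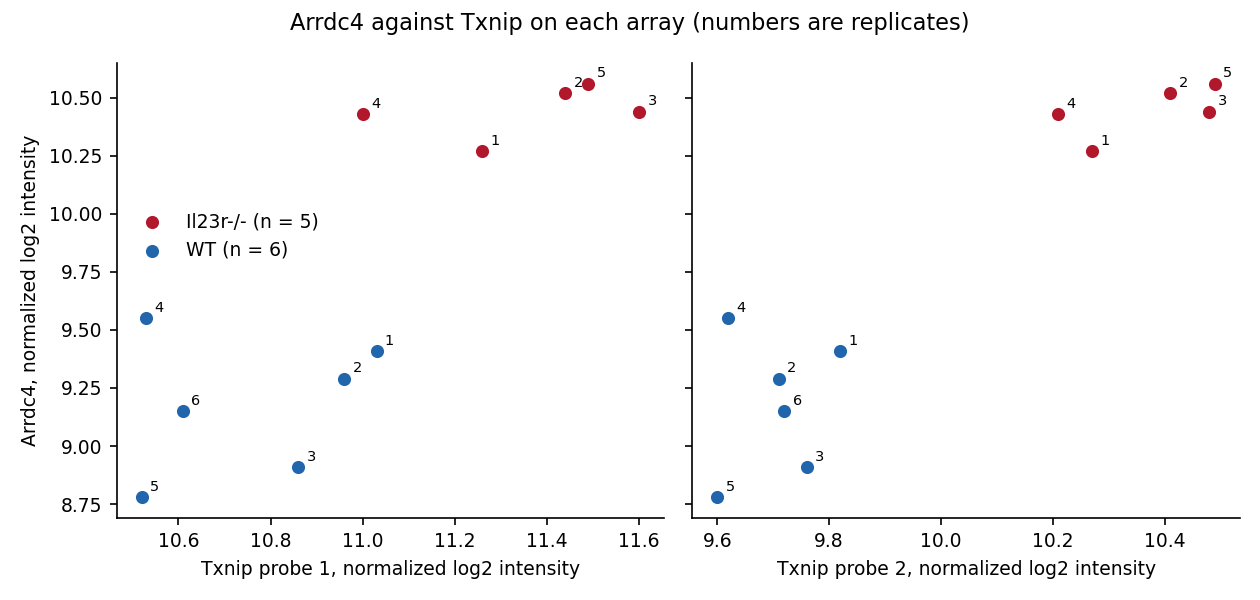
Arrdc4 against Txnip probe 1 (left) and probe 2 (right) on each array, as normalized log2 intensity, with replicate numbers beside the points. The 5 Il23r-/- arrays lie above all WT arrays on the Arrdc4 axis, and on the Txnip axis probe 2 parts the genotypes while probe 1 does not fully part them.

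Across all 11 arrays, after the mean of each genotype was removed, the 5 genes most like Txnip probe 1 among 9138 genes were Bcl9l (r = 0.92), a cofactor of β-catenin, Cited4 (0.89), Antxr1 (0.88), the choline transporter gene Slc44a1 (0.88) and the transcription factor gene Nfic (0.88). Those most like Arrdc4 were Pdp2 (r = 0.92), a phosphatase that activates pyruvate dehydrogenase, C130026I21Rik (0.90), the glutathione transferase gene Gstk1 (0.90), Gas7 (0.89) and Dclk2 (0.88). The 2 sets shared no gene. By the same measure Txnip and Arrdc4 had r = 0.25 with each other, and Arrdc2 had r = -0.70 with Arrdc4. These are descriptions of 11 arrays, in which the highest of many values is high by selection.

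The genes around this pathway were taken from 10 lists, of whose 128 genes 97 were measured. Of these 97, 0 rose and 2 fell in Il23r-/- cells by limma at an adjusted p under 0.05, or 2.06%, where 1.94% of all 9139 measured genes were called (1.27% higher and 0.667% lower). At an unadjusted p under 0.05, 9 of the 97 were higher and 8 lower, where 18% of all measured genes lay under that threshold in either direction. The median log2 difference of all measured genes was 0.01. The 2 genes that fell were Srxn1 and Bcl2l11. With equal array medians neither of them passed, and Irs2 passed as higher instead (limma adjusted p = 0.0232). The plot of the lists shows each gene.

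**Figure D4:**
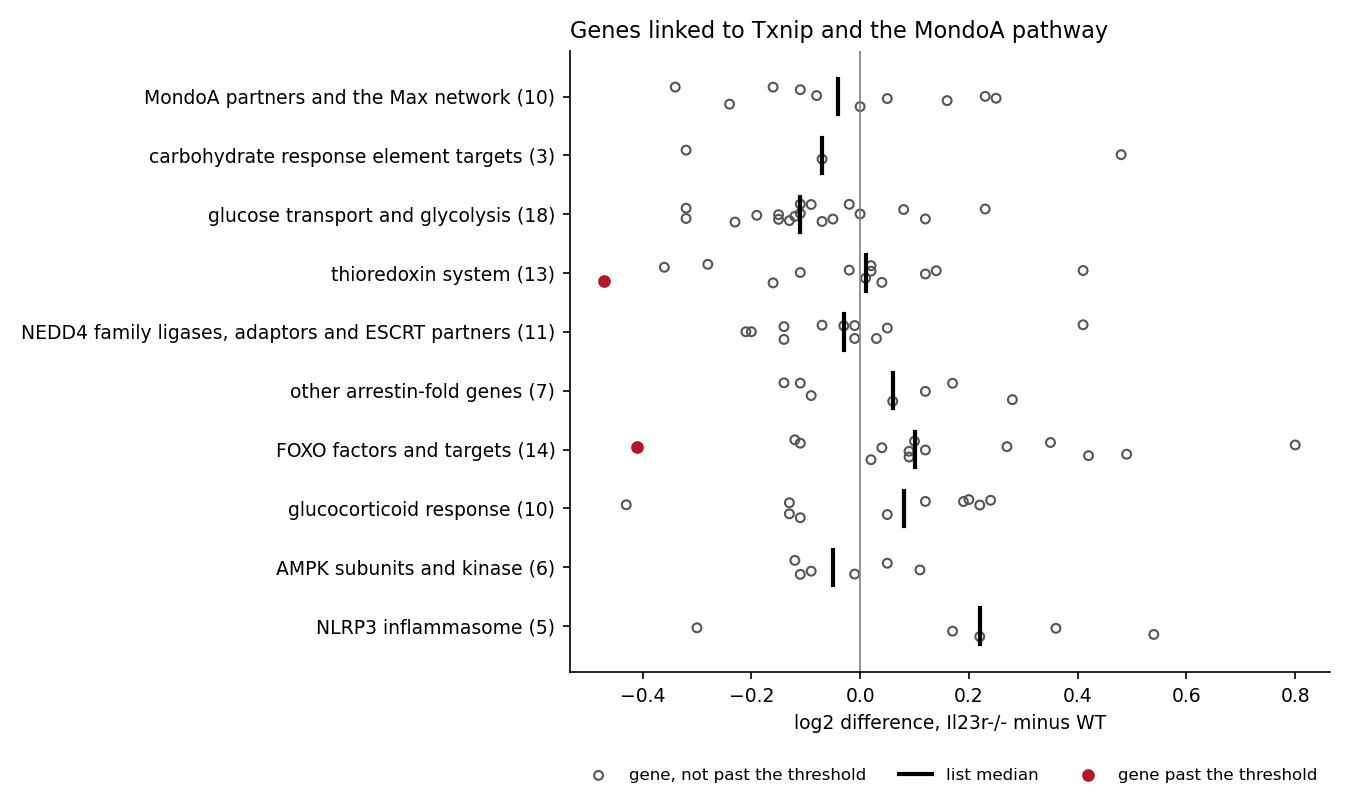
Log2 difference, Il23r-/- minus WT, of each measured gene of the 10 lists on its brightest kept probe, with the number of measured genes in brackets. Filled points are the 2 genes past the threshold, Srxn1 (-0.47) in the thioredoxin list and Bcl2l11 (-0.41) in the FOXO list, and black lines are list medians, which run from -0.11 to 0.22.

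Among partners and competitors of Mlxip in the Max network 0 of 10 measured genes passed, with a median of -0.04. Mxd4 and Mxi1, repressors that pair with Max, were at 0.23 ± 0.11 (SE, limma adjusted p = 0.305) and -0.34 ± 0.18 (adjusted p = 0.35), and Mnt, another repressor, at -0.24 ± 0.13 (adjusted p = 0.367). Of 12 other known carbohydrate response element targets, 1 (Hk2) had no probe named here, 8 were too dim to measure, and of the 3 measured 0 passed (median -0.07): the lipid synthase gene Fasn at -0.32 ± 0.16 (limma adjusted p = 0.328), the signalling regulator gene Rgs16 at 0.48 ± 0.29 (adjusted p = 0.398) and the fructokinase gene Khk at -0.07 ± 0.12 (adjusted p = 0.798). Neither list had a measured gene at an unadjusted p under 0.05. Without the filter on dim probes 1 of the 8 dim targets was called, G6pc, a glucose 6-phosphatase, at 5.80 ± 0.18 (SD, n = 5) in Il23r-/- cells and 5.24 ± 0.18 (SD, n = 6) in WT cells (limma adjusted p = 0.038). Only 2 of 5 Il23r-/- arrays and 0 of 6 WT arrays detected it above background, so no fold is given.

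Glucose transport and glycolysis, the processes that Txnip restrains, had 0 of 18 genes past the threshold, with a median of -0.11 and positive values for 3 of 18, where 51.1% of all measured genes were positive. At an unadjusted p under 0.05, 3 of the 18 were lower and 0 higher. Pkm, a pyruvate kinase, was at -0.32 ± 0.12 (limma adjusted p = 0.207), the glucose transporter gene Slc2a3 at -0.32 ± 0.12 (adjusted p = 0.193) and the lactate dehydrogenase gene Ldha at -0.19 ± 0.08 (adjusted p = 0.247).

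In the thioredoxin system, which Txnip binds and inhibits, 1 of 13 measured genes fell and 0 rose (median 0.01). Srxn1, sulfiredoxin, which repairs oxidised peroxiredoxins, read 6.89, 6.68, 6.88, 6.63 and 6.71 in Il23r-/- samples 1 to 5, against a lowest value of 7.11, a median of 7.22 and a highest value of 7.38 in WT samples. The groups did not overlap, as held for 3.21% of all tested probes, and the log2 difference was -0.47 ± 0.09 (SE, limma adjusted p = 0.0144). Its second kept probe gave -0.45 ± 0.16 without passing (limma adjusted p = 0.164), and with equal array medians the call on the brighter probe was lost (-0.40, adjusted p = 0.155, over all settings 0.00999 to 0.155), as it was with all kept probes of the gene averaged (adjusted p = 0.056). The size of the difference depended on the background correction, at -0.26 without it and -0.27 on the log2 values that the authors deposited, where the call was kept (adjusted p = 0.0264 and 0.0348). Txnrd2, the mitochondrial thioredoxin reductase, was at 0.41 ± 0.10 (limma adjusted p = 0.0522), with 8.18 to 8.33 in Il23r-/- samples and 7.51 to 8.00 in WT samples, which did not overlap. It passed as higher in 5 of 10 other settings and without WT sample 2 (limma adjusted p from 0.0374 to 0.148 over all settings), with 0.29 without background correction and 0.28 on the authors' values, and its second probe was at 0.09 ± 0.13 (adjusted p = 0.747). Txnrd1, the cytosolic reductase, was at -0.36 ± 0.14 (limma adjusted p = 0.21).

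FOXO factors are also known to act on Txnip, and of 14 measured FOXO genes and targets 1 fell and 0 rose, with a median of 0.10 and 11 of 14 values positive. The gene that fell was Bcl2l11, which encodes the death-promoting protein Bim, at 10.66 ± 0.15 (SD, n = 5) in Il23r-/- cells and 11.07 ± 0.12 (SD, n = 6) in WT cells, a log2 difference of -0.41 ± 0.09 (SE, limma adjusted p = 0.0407). Its samples did not overlap between the genotypes, as held for 3.21% of all tested probes. With 1 array left out Bcl2l11 still passed only without Il23r-/- sample 1 or WT sample 2, and failed in the other 9 cases (highest limma adjusted p 0.112). It also failed with equal medians (adjusted p = 0.295), and its 3 other probes were at -0.17 to -0.24 without passing. Irs2, an adaptor of the insulin receptor, read 10.52, 10.83, 10.47, 10.65 and 10.61 in Il23r-/- samples 1 to 5, against a lowest value of 8.95, a median of 9.93 and a highest value of 10.36 in WT samples. The groups did not overlap, and the difference was 0.80 ± 0.19 (SE, limma adjusted p = 0.0502), past the threshold in 8 of 10 other settings and in the fits without WT sample 2 or 3 (adjusted p from 0.0173 to 0.127 over all settings). Sesn1, a stress-induced inhibitor of growth signalling, was at 0.35 ± 0.14 (limma adjusted p = 0.209).

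The remaining lists had 0 genes past the threshold in limma, and at an unadjusted p under 0.05 they had 1 higher and 1 lower gene (ligases), 1 higher (arrestin fold), 1 higher and 1 lower (glucocorticoid response), 0 (AMP-activated kinase) and 2 higher (inflammasome). Among NEDD4 family ligases and their partners (0 of 11, median -0.03), through which alpha-arrestins act, the adaptor gene Ndfip2 was at 0.41 ± 0.15 (limma adjusted p = 0.185), the ESCRT partner gene Pdcd6ip at -0.21 ± 0.09 (adjusted p = 0.251) and Tsg101, which Arrdc1 recruits in human cells, at -0.20 ± 0.11 (adjusted p = 0.339). Among other genes of the arrestin fold (0 of 7, median 0.06), Sag, a visual arrestin, was at 0.28 ± 0.11 (limma adjusted p = 0.213), the retromer subunit gene Vps26a at 0.17 ± 0.09 (adjusted p = 0.334) and Rgp1 at -0.11 ± 0.09 (adjusted p = 0.558). Of the glucocorticoid response genes (0 of 10, median 0.08) the decoy receptor gene Il1r2 was at -0.43 ± 0.12 (limma adjusted p = 0.0905, from 0.0276 to 0.184 over all settings), Cebpd at 0.20 ± 0.09 (adjusted p = 0.245) and Dusp1 at 0.19 ± 0.13 (adjusted p = 0.449). Of the AMP-activated kinase genes (0 of 6, median -0.05), whose product phosphorylates Txnip, Prkag1 was at -0.12 ± 0.10 (limma adjusted p = 0.542), Prkab1 at -0.11 ± 0.10 (adjusted p = 0.597) and Prkab2 at 0.11 ± 0.11 (adjusted p = 0.631). Of the inflammasome genes (0 of 5, median 0.22) Nek7 was at 0.36 ± 0.14 (limma adjusted p = 0.193), the protease gene Casp1 at 0.22 ± 0.09 (adjusted p = 0.212) and the pore-forming protein gene Gsdmd at 0.17 ± 0.09 (adjusted p = 0.359).

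Markers of other colon cells overlapped between the genotypes in their summed level, taken as the sum of linear normalized intensities over the measured genes of a list. Of 14 myeloid markers with a probe 12 were measured and 0 passed, with a sum of 12188 to 15031 in Il23r-/- samples and 9882 to 19483 in WT samples. The log2 differences of the 12 ran from -0.79 to 0.51, with a median of 0.21 and 8 of 12 positive. The brightest of them, Cst3, Lyz1 and Ctss, were at -0.18, 0.44 and -0.18, while Itgam and Adgre1 were too dim to measure. Of 12 epithelial markers 7 were measured and 0 passed, with a sum of 1320 to 1777 in Il23r-/- samples and 1155 to 2025 in WT samples. Of these the brightest were Lgals4 (0.11), Cdh1 (0.82 ± 0.21 SE, limma adjusted p = 0.071) and Krt8 (-0.21), while Epcam and Vil1 were too dim to measure. Few markers of B cells (1 of 5 with a probe, Cd79b at 0.06), of stroma and endothelium (2 of 9, Dcn at -0.59 and Pecam1 at -0.13) and of CD8 or natural killer cells (2 of 4, Cd8b1 at -0.18 and Klrb1c at -0.19) were measured, and 0 passed. Cd8b1 was above background on all arrays, at 10.36 ± 0.12 (SD, n = 5) in Il23r-/- and 10.54 ± 0.18 (SD, n = 6) in WT cells. Cd8a was too dim to measure. At an unadjusted p under 0.05 the lists of other cells held 1 higher and 1 lower gene, both epithelial. The higher was Cdh1 and the lower Krt18 (-0.75 ± 0.24 SE, limma adjusted p = 0.133). The part of other cells in the Txnip and Arrdc4 differences was not tested.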

How the data were processed

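RNA of 11 sorted T cell samples, 5 Il23r-/- and 6 WT, was biotin-labelled and measured on an Illumina mouse bead array, per the labels. The authors deposited linear probe intensities, from GenomeStudio 1.6.0 as the submitters' processing notes record, with no visible normalization. The deposited detection p-value column rose with intensity (Spearman correlation across probes at least 0.984 on each array) and therefore was taken as 1 minus the detection p. The log2 values in the series table that the authors deposited equal log2 of the same intensities minus the 75th percentile of each array, and the tables were joined through this match (largest difference 0.000339). The platform annotation gives 1 symbol to 34885 probes, several to 18 (left unnamed) and does not list 10378.

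Normalization used the neqc function (limma 3.58.1, R 4.3.3, offset 16, which shrinks differences of dim probes, and quantile normalization). Probes with a detection p under 0.05 on at least 5 arrays were kept. Genotypes were compared with lmFit and eBayes, two-sided, with Benjamini-Hochberg adjustment across the kept probes, and calls at an adjusted p under 0.05. A listed gene stands by its brightest kept probe. The code was tested on simulated data. Arrays correlated at 0.9764 to 0.9918, and no array repeated another. Their number limits the precision.

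The genes and lists were chosen with earlier results of these data known. Text names every member, each list gene called and the 3 with the smallest p in each pathway list, the 3 brightest of each marker list of other cells, and the 5 genes most like Txnip and Arrdc4. Arrdc5, Cd3g, Thy1, Cd4, Cd247, Cd2, Cd8a, Hk2, G6pc, Itgam, Adgre1, Epcam, Vil1 and Krt18 were named in addition, after their values were seen. Alternatives were a replicate block, skipping the background correction, equal medians, the authors' values, other filters, other variance models, array weights, averaged probes and leaving out each array. Array brightness as a covariate was chosen after seeing the data. The sources used here do not give the slides.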

Additional observations from a re-analysis of the deposited data

Results flagged for a closer look

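In Il23r-/- cells the dimmest Mlxip probe had 1 sample far from the others. Il23r-/- sample 2 read 5.09 (normalized log2 intensity), and the other 4 samples read 4.82 to 4.85. This probe stayed at background on all 11 arrays. Of 38 groups of values examined in this way 1 stood out, where chance gives about 1 in 20.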

How the results depend on the processing

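The differences of the 8 measured probes of Txnip, Arrdc4, Arrdc1, Arrdc2, Mlxip and Mlx moved by less than 1 SD between samples in each of 20 other settings. The count of called probes, 320, was 210 without the filter on dim probes and 512 with array brightness as a covariate, and 159 to 513 when 1 array was left out. The 2 called genes of the pathway lists became 5 without background correction or on the authors' values. The genes added there were Irs2 and Txnrd2, both higher, and Il1r2, lower. The count was 4 with the stricter filter, the trended variance model, array weights or array brightness. With equal medians or averaged probes the count was 1, and the gene was Irs2, as higher (limma adjusted p = 0.0232 and 0.0482). Neither Srxn1 nor Bcl2l11 passed in those 2 settings. When 1 array was left out the count ran from 1 to 5 (5 without WT sample 2). Within WT, r of Txnip turned positive with equal medians for Arrdc1 (0.86), Arrdc2 (0.23) and Mlx (0.28), and for Arrdc1 (0.17) over deviations of all 11 arrays, and the cause was not tested. With 1 WT array left out it ran from -0.17 to 0.74 for Arrdc4, from -0.78 to 0.01 for Arrdc1 and from -0.65 to 0.25 for Mlx. Same-numbered samples did not deviate together in every pair (correlations of 0.24, 0.17, -0.01, 0.08 and 0.26 for numbers 1 to 5), so the numbers were not taken as pairs. These correlations do not exclude a pairing, which the labels do not state. Median raw intensities followed the same order by number in both genotypes. For numbers 1 to 5 they were 176.7, 164.0, 124.4, 130.7 and 117.5 in Il23r-/- and 165.3, 156.7, 128.4, 131.7 and 107.6 in WT samples. With the replicate block 264 probes were called, and Arrdc4 was at 1.25, Txnip at 0.58 and 0.67, and Bcl2l11 no longer passed (adjusted p = 0.091). Dim probes limit what can be said of Arrdc2, Mlx and Mlxip, 6 of whose probes were above background on at most 1 array each.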
